A study of Rattus norvegicus with 60 samples.

Results

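The microRNAs (miRs) rno-miR-7a, rno-miR-7b and rno-miR-375 were followed in the rat retina after ischemia-reperfusion (IR) injury. They were selected by their names in the array annotation, 3 of the 350 rat miRs on the array. Long Evans hooded male rats of 250 to 300 g received an intraocular pressure of 110 mmHg for 60 min in the eye of the IR groups, followed by reperfusion of 5 lengths, from 0 h over 2 h, 24 h and 48 h to 7d. Sham control rats had the same anesthesia and cannulation of the eye without the raised pressure, and their retinas were collected at the same 5 time points. Each of the 10 groups held 6 rats with 1 array per rat, 60 arrays in all, and 100 ng of total RNA from whole retina was labeled with the dye Cy3. Whole retina mixes all its cell types, so fewer cells that hold a miR and less of it per cell cannot be told apart in any value here.

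MiRs are short RNAs that pair with messenger RNAs, mainly through the bases of the seed near their 5′ end, and lower the output of those messages. The miR-7 family and miR-375 are best known from neuroendocrine tissue. Both are abundant in the hormone-secreting cells of the pancreatic islet, where miR-375 restrains insulin secretion, and miR-7 is also abundant in the pituitary and hypothalamus. In the brain, miR-7 is bound by a circular RNA, Cdr1as, that carries many sites for it.

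The mature sequences are shown 5′ to 3′ because the members of the miR-7 pair are nearly identical, with the seed (bases 2 to 8) in capitals, from the RefSeq table on build GRCr8.
rno-miR-7a: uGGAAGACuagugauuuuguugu
rno-miR-7b: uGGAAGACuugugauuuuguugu
rno-miR-375: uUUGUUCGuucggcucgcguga
The first 2 share their seed and 22 of 23 bases, and differ only by A10U, counted from the 5′ end of rno-miR-7a. No other of the 693 mature rat miR names in the table has this seed. The seed of rno-miR-375 is shared by none of them, and the miR has a GC content of 54.5% against 34.8% in each miR-7. The same mature rno-miR-7a comes from a locus on chromosome 1 (chr1:142215818-142215840, plus strand) and from Mir7-1 on chromosome 17 (chr17:6278710-6278732, plus strand), and an array of mature miRs cannot tell these sources apart. The mature rno-miR-7b lies at chr9:1167464-1167486 (plus strand) and the mature rno-miR-375 at chr9:83906591-83906612 (minus strand).

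The array also carried the passenger strand rno-miR-7a*, which belongs to the chromosome 17 hairpin by the chromosome of its probes. The mature strand released from the 3′ arm of Mir7-1 (chr17:6278751-6278772) is shown because its signal is set beside that of rno-miR-7a, with bases 2 to 8 in capitals.
rno-miR-7a*: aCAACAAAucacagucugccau
The array annotation (build rn4) places 2 probes for rno-miR-7a within chr1:134607283-134607304 and 2 for rno-miR-375 within chr9:74233508-74233522, each printed in 10 spots. It gives 4 probes without a position for rno-miR-7b, and 4 within chr17:12204144-12204162 for rno-miR-7a*, each in 5 spots.

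Signals are total intensities per miR after subtraction of the background, so they can lie below 0, and a flag of the scanner software says whether the miR was detected on an array. Scaling set the 75th percentile of the 57 miRs that all 60 arrays detected to a common value. For tests, signals under a floor of 6.20 units were raised to it, which is 2.63 in log2 units. Tested in 1 limma fit over the 10 groups were 159 miRs, each of them detected by all 6 arrays of some group. A miR was called when its fold change reached 2 and its adjusted p (Benjamini-Hochberg, within each comparison) was at most 0.05. The 3 miRs were all among the 159. The 6 retina neuron miRs checked (miR-124, miR-9, miR-183, miR-96, miR-182 and miR-181a) were detected on all 60 arrays. Of the 4 blood miRs, miR-144 and miR-142-3p were detected on no array, miR-451 on 1 and miR-223 on 16.

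On average, IR arrays were dimmer than sham control arrays at every time point except 2 h. Brightness, the log2 of the 75th percentile before scaling, was 9.34 ± 0.89 for IR against 10.40 ± 0.49 for sham control at 0 h (SD, n = 6), and 9.84 ± 0.58 against 9.80 ± 0.41 at 2 h. It was 8.27 ± 0.57 against 10.43 ± 0.35 at 24 h, 9.26 ± 0.85 against 10.45 ± 0.30 at 48 h, and 8.16 ± 0.47 against 10.74 ± 0.24 at 7d. After scaling, the lowest signal that was still called detected on an IR array lay between 14.8 and 41.2 units at 24 h and between 8.96 and 90.6 at 7d. On the sham control arrays it lay between 1.56 and 7.46 units at 24 h and between 0.529 and 5.81 at 7d. The part of brightness in the results below was not tested beyond the fit with brightness as a covariate.

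**Figure D1:**
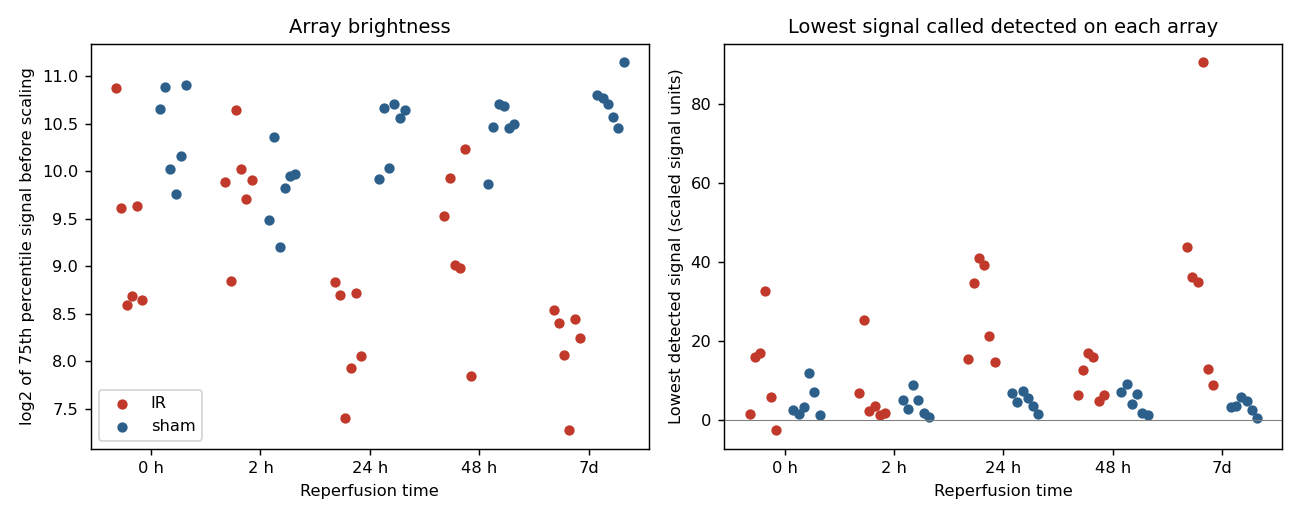
Array brightness (left, log2 of the 75th percentile signal before scaling) and the lowest signal called detected on each array (right, scaled signal units) by reperfusion time, with 1 point per array, red for IR and blue for sham control. At 24 h and 7d all IR arrays were dimmer than all sham control arrays, and their detection limits reached 41.2 and 90.6 units.

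Among the 3 miRs, rno-miR-375 gave the largest differences between IR and sham control on the floored log2 scale, where its values at 24 h and 7d rest on the floor. Without normalization between arrays, rno-miR-7a had the larger difference at 24 h and 7d (-2.74 and -3.31, beside -1.85 and -2.32), and rno-miR-375 at the other times. At 24 h and 7d the median of all miRs tested was -2.03 and -2.50 in that setting. The miR rno-miR-375 was detected on 27 of 30 sham control arrays and on 9 of 30 IR arrays. It was lower in IR and called at every time point but 2 h, a direction that turned at those 4 times when the background was corrected with normexp instead. With normexp it was called higher at 24 h, 48 h and 7d (1.04, 1.05 and 1.47 on the log2 scale). The normexp setting added the same constant to every spot before scaling, and the median of all miRs tested was then 0.87, 0.84 and 1.15. The part of this constant in the turned directions, here and below, was not tested. The sham control groups at 0 h, 24 h and 7d alone detected rno-miR-375 on all 6 arrays and so brought it among the 159 miRs. Its calls at those times are not independent of that filter, and nothing is drawn from them. At 0 h rno-miR-375 was the only one of the 159 miRs called lower (0.629% of those tested, and 6.92% were called in either direction).

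On sham control arrays at 0 h, the scaled signal of rno-miR-375 was 15.3 at the lowest, 16.8 in the median and 20.8 at the highest. On IR arrays at 0 h it was -6.08, 7.78 and 15.8. At 0 h, 5 IR arrays were under the lowest sham control value and the other lay within the sham control range. That array, replicate 1, had a brightness of 10.9, and the other 5 lay between 8.59 and 9.64 (chosen after the values were seen). Floored log2 means were 3.11 ± 0.57 for IR against 4.12 ± 0.18 for sham control (SD, n = 6), a ratio of 2.01 (95% interval 1.45 to 2.79, limma, adjusted p = 0.0013). The miR was detected on 3 of the 6 IR arrays, so the ratio rests in part on the floor. Of the 159 miRs, 30.8% were detected on fewer IR than sham control arrays at 0 h. The call was lost with brightness as a covariate (-0.69 on the log2 scale, adjusted p = 0.064 by limma), with the mean over probes (-0.58, adjusted p = 0.39 by limma), in the exact permutation test (adjusted p = 0.0794), and when any of 5 of the 12 arrays was left out (IR replicates 2, 3 and 4, each -0.91, and sham control replicates 1 and 6, -0.98 and -0.96), each value below the fold threshold.

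At 2 h, where the mean brightness of both groups differed by less than its SD, rno-miR-375 was not called. The signal on IR arrays ran from 8.10 over a median of 14.7 to 19.8, and on sham control arrays from 10.1 over 20.5 to 26.6. The groups overlapped. The floored log2 signals were 3.77 ± 0.45 and 4.22 ± 0.56 (SD, n = 6), and their difference of -0.45 had a 95% interval from -0.92 to 0.02 (limma, adjusted p = 0.4). At this time 5.03% of the 159 miRs were called, none of them lower. The interval does not leave out a decrease close to 2-fold.

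At 24 h no IR array detected rno-miR-375, and all 6 sham control arrays did (Fisher's exact test, two-sided, p = 0.00216, adjusted p = 0.0108 over 15 tests of detection). Only sham control groups detected rno-miR-375 on all 6 arrays, and so brought it among the 159 miRs. The IR detection limits reached 41.2 units, above every sham control signal of this miR, so nothing is drawn from this test. Detection on fewer IR than sham control arrays was found for 49.1% of the 159 miRs. The signal was -19.5, -1.43 and 5.37 at the lowest, median and highest IR array, and 14.05, 15.5 and 22.6 on the sham control arrays. The highest IR array was thus under the lowest sham control array, and 5 IR values were below 0. Groups did not overlap in this way for 17% of the 159 miRs. The error that the scanner software gave for this miR was 9.91 to 27.4 scaled units for IR and 2.21 to 7.61 for sham control. Floored log2 means were 2.63 (all 6 arrays at the floor) and 4.03 ± 0.25 (SD, n = 6, limma, adjusted p = 2.62e-06), where 18.2% of the miRs were called and 6.29% were called lower. No fold change is given, because the bound set by IR detection limits against the sham control mean is under 1. With brightness as a covariate the call was lost (adjusted p = 0.0661 by limma).

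At 48 h the miR was detected on 1 IR array and on 5 sham control arrays (Fisher's exact test, adjusted p = 0.24 over 15 tests). The IR signals were -11.7, 6.28 and 14.1 at the lowest, median and highest array, and the sham control signals 13.6, 21.99 and 33.3. At 48 h, 4 IR arrays were under the lowest sham control value, and groups without overlap made up 8.81% of the 159 miRs. Floored log2 signals were 3.04 ± 0.60 and 4.45 ± 0.46 (SD, n = 6), a ratio of 2.66 (95% interval 1.92 to 3.68, limma, adjusted p = 3.55e-06), with 3 of the IR arrays at the floor and 1 with detection. At 48 h, 13.8% of the 159 miRs were called and 3.77% were called lower. Of the called values for rno-miR-375, that at 48 h alone also passed with brightness as a covariate, and it passed by the exact permutation test as well (adjusted p = 0.0246).

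At 7d the detection was again 0 of 6 against 6 of 6 arrays (Fisher's exact test, p = 0.00216, adjusted p = 0.0108). For the same reasons nothing is drawn from this test, with IR detection limits that reached 90.6 units. The IR signals were -20.1, -4.68 and 10.7, and the sham control signals 12.9, 18.8 and 22.6, with no overlap between the groups, as for 26.4% of the 159 miRs. Of the IR values, 4 were below 0, against 0 of the 30 sham control values at all time points. The error was 9.58 to 38.7 units on IR arrays and 2.08 to 3.73 on sham control arrays. Floored log2 means were 2.76 ± 0.32 and 4.19 ± 0.30 (SD, n = 6, limma, adjusted p = 1.28e-06), where 18.2% of miRs were called and 10.7% were called lower. The bound was again under 1, so no fold change is given. With brightness as a covariate the adjusted p was 0.178 by limma.

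**Figure D2:**
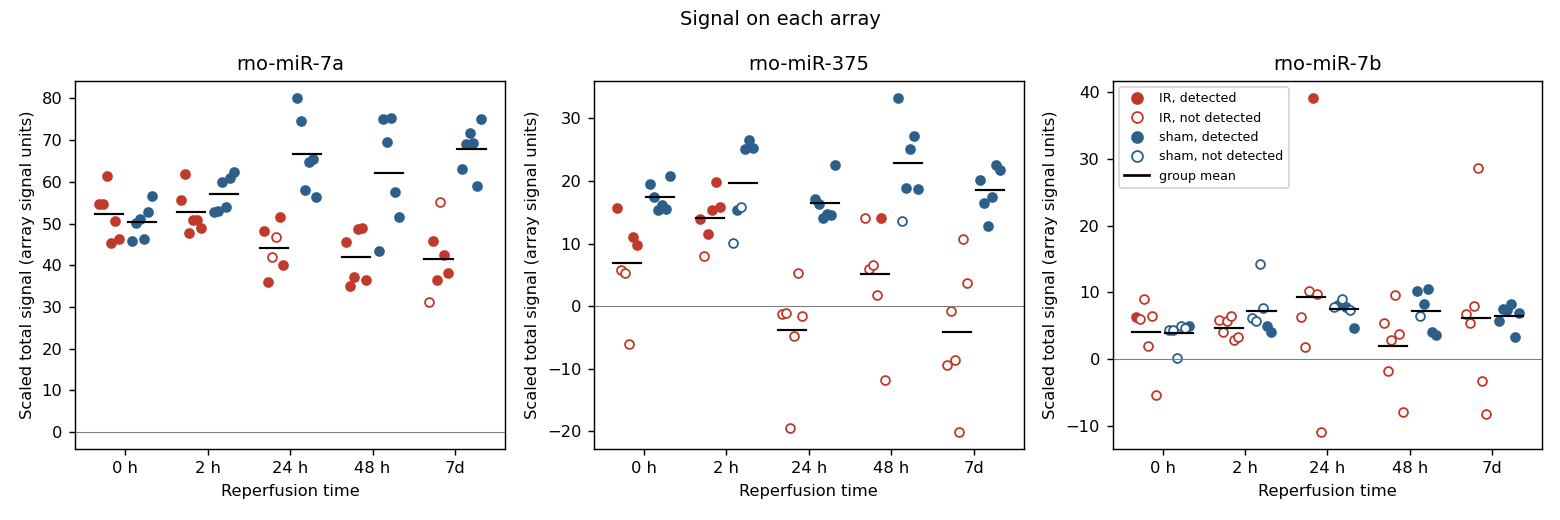
Scaled total signal of rno-miR-7a, rno-miR-375 and rno-miR-7b on each array by reperfusion time, red for IR and blue for sham control, filled where the miR was detected and open where it was not, with the group mean as a bar. At 24 h and 7d the IR points of rno-miR-375 were all open and all lay below the sham control points, while the points of rno-miR-7a at those times were mostly filled and lay below them too (after normexp background correction both directions turned). Of the 159 miRs, 17% at 24 h and 26.4% at 7d had every IR array below every sham control array.

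The rno-miR-7a signal was detected on all 30 sham control arrays and on 26 of 30 IR arrays. Its difference between IR and sham control was under 2-fold at each time point, so it was not called at any. At 24 h, 48 h and 7d its adjusted p nevertheless passed 0.05 with lower values in IR, a direction that turned with normexp background correction (called higher at 7d, at 1.05). At those times 35.8%, 35.2% and 39.6% of all miRs tested were lower in IR at that adjusted p, and the median difference of all 159 was -0.13, -0.15 and -0.15 on the log2 scale.

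At 0 h and 2 h the signals of rno-miR-7a overlapped. At 0 h they ran from 45.3 over a median of 52.6 to 61.5 in IR and from 45.7 over 50.5 to 56.6 in sham control, a difference of 0.05 on the log2 scale (95% interval -0.19 to 0.28, limma, adjusted p = 0.895). At 2 h they ran from 47.6 over 50.9 to 61.9 and from 52.7 over 56.9 to 62.3, a difference of -0.12 (95% interval -0.35 to 0.11, limma, adjusted p = 0.77). Both intervals leave out a change of 2-fold in the main fit. Without normalization between arrays, rno-miR-7a was called lower at 0 h (-1.01, limma, adjusted p = 0.00899). The median of all miRs tested was then -0.98. The sign at 0 h turned in 6 of 16 alternatives.

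At 24 h the rno-miR-7a signals were 36.1, 44.4 and 51.6 at the lowest, median and highest IR array and 56.3, 65.1 and 80.2 in sham control, with no overlap. The same held for 17% of the 159 miRs. Log2 means of 5.45 ± 0.19 and 6.05 ± 0.20 (SD, n = 6) gave a sham control to IR ratio of 1.51 (95% interval 1.28 to 1.77, limma, adjusted p = 3.48e-05). At 48 h the signals were 34.95, 41.3 and 48.9 in IR and 43.4, 63.5 and 75.2 in sham control, where the lowest sham control array lay within the IR range. The ratio was 1.46 (95% interval 1.25 to 1.72, limma, adjusted p = 8.6e-05). At 7d the signals were 31.3, 40.3 and 55.2 in IR and 59.1, 69.2 and 75.05 in sham control, again with no overlap, as for 26.4% of the 159 miRs. The ratio was 1.65 (95% interval 1.41 to 1.94, limma, adjusted p = 7.75e-07). Relative to the median of all miRs tested, the differences of rno-miR-7a were -0.47, -0.40 and -0.58 on the log2 scale, at ranks 27, 32 and 34 from the lowest of 159.

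At 24 h and 7d, 4 of the 6 IR arrays detected rno-miR-7a, against 6 of 6 in sham control (Fisher's exact test, adjusted p = 0.758 at each). The ratio of its signal to the scanner's error had a median of 3.09 for IR and 8.94 for sham control at 24 h, and of 2.53 and 9.90 at 7d. Fitting the slide as a fixed block reduced the differences to -0.32, -0.24 and -0.33 at the last 3 times, with adjusted p = 0.205, 0.303 and 0.116 by limma. With brightness as a covariate they were -0.55, -0.53 and -0.67 (limma, adjusted p = 0.0158, 0.0012 and 0.006). At each of these times, 14 of 16 alternatives kept the direction with an adjusted p of at most 0.05. The fixed block and normexp did not. No slide held both groups of a comparison, so a within-slide value could not be had.

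**Figure D3:**
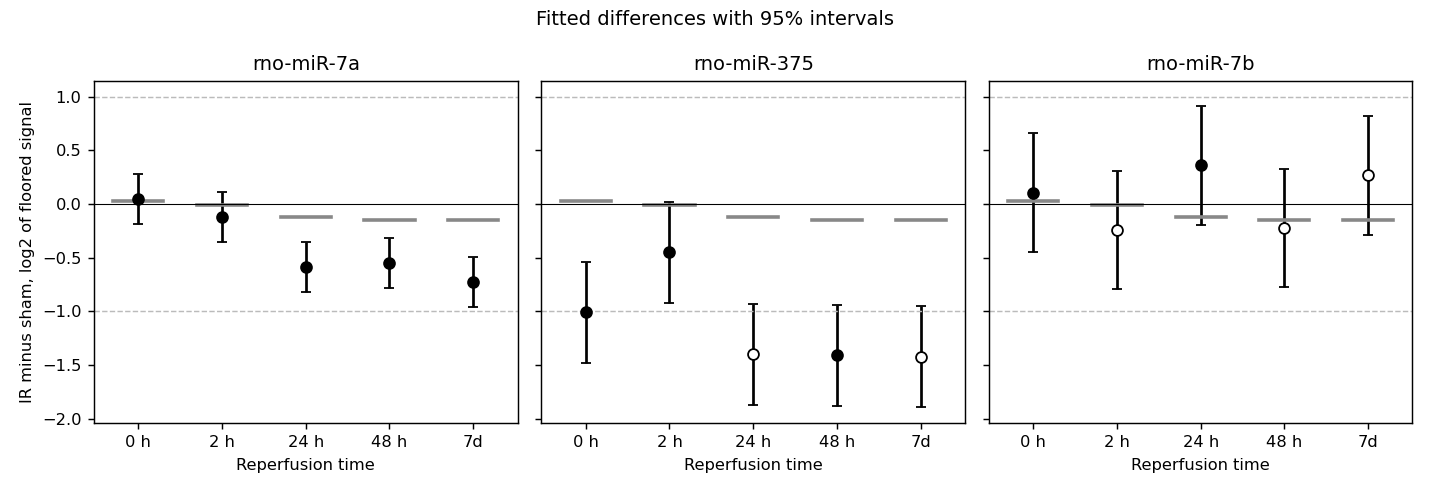
Fitted difference of IR minus sham control (log2 of the floored signal) with its 95% interval at each reperfusion time for the 3 miRs, the grey bar giving the median of the 159 miRs tested and the dashed lines a 2-fold change. Open points mark times at which no IR array detected the miR, where the value shows the floor and is no fold change. The points of rno-miR-7a lie between -0.73 and 0.05, those of rno-miR-375 between -1.42 and -0.45, and with normexp background correction both lay above 0 at 24 h, 48 h and 7d.

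The rno-miR-7b signal stayed close to the floor, and it was not called at any time point. It was detected on 17 of 30 sham control arrays and on 2 of 30 IR arrays. Fitted differences lay between -0.24 and 0.36 on the log2 scale (limma, adjusted p of 0.251 to 0.896), with 95% intervals that reached from -0.79 to 0.91. In sham control, the number of arrays with detection was 1, 2, 3, 5 and 6 of 6 in order of time, and in IR it was 1, 0, 1, 0 and 0. At 7d the detection of 0 of 6 against 6 of 6 arrays gave p = 0.00216 in Fisher's exact test (adjusted p = 0.0108 over 15 tests). Sham control at 7d is also the only group in which all 6 arrays detected rno-miR-7b, and so the group through which it was among the 159 miRs, and nothing is drawn from this test. At 48 h the detection of 0 against 5 arrays had p = 0.0152 by Fisher's exact test (adjusted p = 0.0568). The signals themselves did not separate in this way. At 7d they ran from -8.25 over 6.13 to 28.7 units in IR and from 3.33 over 7.15 to 8.26 in sham control, so the groups overlapped. Of the 159 miRs, 61.6% were detected on fewer IR than sham control arrays at 7d, and 36.5% at 48 h.

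The passenger strand rno-miR-7a* was not lower in IR at 24 h and 7d, where rno-miR-7a was, except without normalization between arrays (-1.16 and -1.48 on the log2 scale, beside -2.03 and -2.50 for the median of all miRs tested). At 24 h its signal was 11.3, 25.03 and 34.96 at the lowest, median and highest IR array and 8.54, 12.9 and 14.2 in sham control. Its difference was 0.83 (limma, adjusted p = 0.0309, not called), but only 2 of the 6 IR arrays detected it, against 5 in sham control. It was called higher at 24 h and 7d with the mean over probes (1.02 and 1.12) and with normexp (1.22 and 1.72). At 7d the difference was 0.56 (limma, adjusted p = 0.135), with detection on 1 IR array and on 6 sham control arrays. The difference between the 2 strands was not tested.

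The probes of each miR were compared as a description. The longer probe of rno-miR-7a gave a median of 92% of its total signal and that of rno-miR-375 94.7%. In the longer rno-miR-7a probe, the median spot signal at 24 h was 65.4 units in IR and 88.2 in sham control, and at 7d 57.9 and 99.6. The shorter probe was also lower in IR, at 4.77 against 9.16 units at 24 h and -1.04 against 9.52 at 7d. In the longer rno-miR-375 probe, the medians were 9.20 and 24.97 units at 24 h and 7.37 and 27.3 at 7d, and the 6 IR arrays were under the lowest sham control array at both times. In its shorter probe they were -12.8 and -0.3 at 24 h and -12.2 and 2.46 at 7d. The negative totals of rno-miR-375 on IR arrays came with a negative shorter probe and a longer probe whose median was above 0. No spot of the longer probe was well above background in IR at 24 h or 7d (0 of 60 each time), against 27 and 59 of 60 in sham control. Both probes of each of these miRs were lower in IR at 24 h, 48 h and 7d. No spot of the 3 miRs was saturated. The 4 probes of rno-miR-7b did not share 1 direction at 0 h, 24 h or 7d, and were all lower in IR at 2 h and 48 h.

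**Figure D4:**
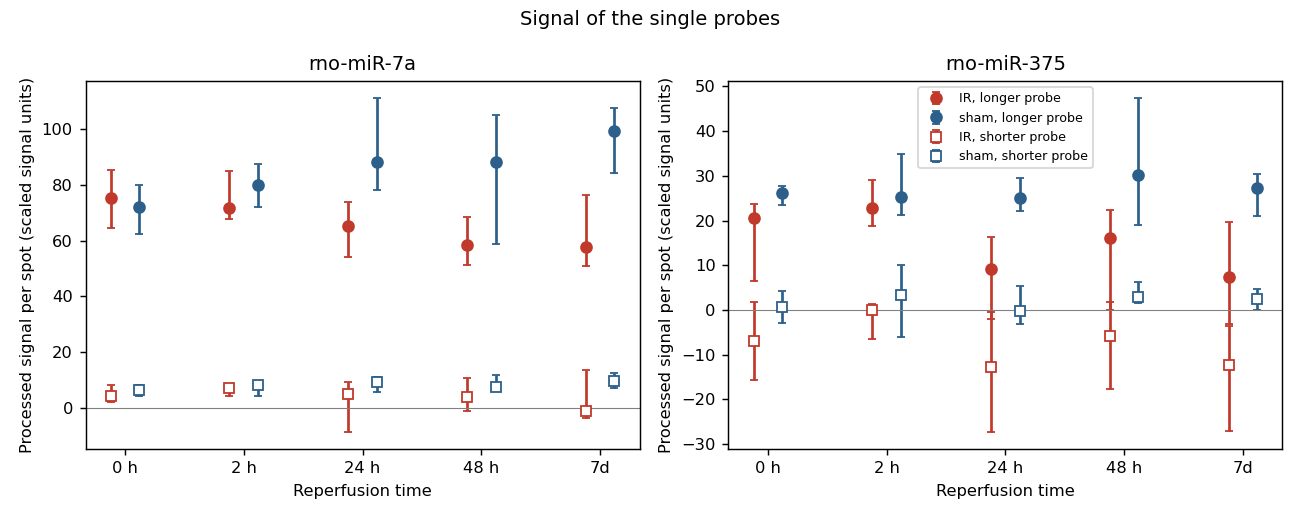
Processed signal per spot (scaled signal units) of the longer probe (filled) and the shorter probe (open) of rno-miR-7a and rno-miR-375 by reperfusion time, red for IR and blue for sham control, as the group median with bars from the lowest to the highest array. At 24 h and 7d the longer probes separated the groups, with medians of 65.4 and 88.2 units at 24 h for rno-miR-7a and 9.20 and 24.97 for rno-miR-375 (IR and sham control), whereas normexp background correction turned both differences.

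Whether the difference between IR and sham control itself changed over reperfusion was tested with interaction contrasts, called at an adjusted p of at most 0.05. For rno-miR-7a the difference was lower at 24 h than at 0 h by -0.64 ± 0.16 on the log2 scale (SE, limma, adjusted p = 0.00762), at 48 h by -0.60 ± 0.16 (adjusted p = 0.0113 by limma) and at 7d by -0.77 ± 0.16 (adjusted p = 0.00149 by limma). Of the 159 miRs, 6.29%, 12.6% and 25.8% passed in these contrasts. Part of each contrast lies in sham control, where rno-miR-7a was 0.39, 0.27 and 0.43 higher at these times than at 0 h. The changes from 0 h to 2 h (-0.17, adjusted p = 0.988) and from 24 h to 7d (-0.13, adjusted p = 0.743) did not pass in limma, and 0.629% and 3.14% of the miRs passed in them. With normexp background correction the contrasts at 24 h, 48 h and 7d turned (0.0080, 0.050 and 0.31), and with the slide as a fixed block none passed. Of 14 alternatives, the 24 h contrast passed in 9, the 48 h contrast in 6 and the 7d contrast in 12, and the mean over probes, the 75th percentile over all miRs and quantile normalization each lost those at 24 h and 48 h. For rno-miR-375 none of the 5 contrasts passed, with differences from -0.41 to 0.56 (limma, adjusted p of 0.384 to 0.977), so the absence of a call at 2 h is not a difference from 0 h by this test. For rno-miR-7b none passed either (limma, adjusted p of 0.673 to 0.988).

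In sham control, rno-miR-7a was 0.43 higher at 7d than at 0 h on the log2 scale (95% interval 0.20 to 0.66, limma, adjusted p = 0.0279), which is under 2-fold. At this adjusted p, 5.66% of the miRs were higher and 4.4% lower. Its other sham control differences from 0 h, of 0.18 at 2 h, 0.39 at 24 h and 0.27 at 48 h, had adjusted p = 0.995, 0.0888 and 0.222 by limma. For rno-miR-375, sham control times differed from 0 h by -0.08 to 0.34, none of them called.

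In the order of the group means, rno-miR-7a was highest in sham control at 7d (6.08 on the log2 scale), followed by sham control at 24 h, 48 h and 2 h, then IR at 2 h and 0 h and sham control at 0 h (5.65), and last IR at 24 h, 48 h and 7d (5.35). For rno-miR-375 all 5 sham control groups (4.03 to 4.45) stood above all 5 IR groups (2.63 to 3.77). Neighbours in the order did not differ beyond their larger SD except for 2 gaps. These were sham control at 0 h against IR at 24 h for rno-miR-7a (0.20, exact permutation test, p = 0.0584) and IR at 2 h against IR at 0 h for rno-miR-375 (0.66, exact permutation test, p = 0.0519), and neither passed after adjustment over 27 pairs (adjusted p = 0.789 by the exact test). No neighbours of rno-miR-7b differed beyond their SD.

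The arrays were scanned in 3 runs, each with IR and sham control arrays of every group. Within the runs, the rno-miR-375 difference was -1.19, -1.77 and -1.27 at 48 h and -1.03, -0.93 and -1.09 at 0 h on the floored log2 scale. The rno-miR-7a difference was -0.89, -0.43 and -0.49 at 24 h, -0.52, -0.76 and -0.37 at 48 h, and -0.80, -0.65 and -0.73 at 7d. Each run gave the same direction at these times from 1 to 3 arrays per group. At 24 h and 7d, where no IR array detected rno-miR-375, no value is given by run. The 0 h difference of rno-miR-7a changed sign between runs (0.22, -0.05 and -0.29).

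Among the other miRs tested, those whose 10 group means correlated best with rno-miR-7a were miR-136* (Pearson's r = 0.98), miR-384-5p (0.97) and miR-352 (0.96). For rno-miR-375 they were miR-323 (0.99), miR-99b (0.98) and miR-379 (0.98), and for rno-miR-7b they were rno-miR-7a* (0.92), miR-339-3p (0.78) and miR-664 (0.75). The group means of rno-miR-7a and rno-miR-375 correlated at r = 0.83, and those of rno-miR-7a and rno-miR-7b at -0.20. These are descriptions over 10 groups that share their arrays, brightness and floor. The miRs most like rno-miR-375 and rno-miR-7a were themselves detected on 21 to 55 of 60 arrays.

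A list of 17 other miRs with known roles or high levels in islet and neuroendocrine cells was read beside the 3 miRs. All were on the array and 11 were tested, while miR-141, miR-146a, miR-200a, miR-200b, miR-200c and miR-429 were not. At 24 h, 1 of the 11 was called higher and 0 lower, and at 7d 1 was called higher and 1 lower. Of all 159 miRs, 18.2% were called at 24 h and 18.2% at 7d, and 6.29% and 10.7% were called lower. The median difference of the list was 0.02 at 24 h and -0.11 at 7d, beside -0.13 and -0.15 for all 159 miRs. The called miRs were miR-21, a miR linked to cell growth and injury in many tissues, which rose by 2.21 at 24 h and 1.23 at 7d on the log2 scale (limma, adjusted p = 2.13e-16 and 4.28e-08, though without normalization between arrays the values were 0.060, not called, and -1.35, beside -2.03 and -2.50 for the median of all miRs tested, and the 7d call was lost with brightness as a covariate at 0.96 and in the authors' table at 0.98), and miR-184, an epithelial miR. At 7d miR-184 was detected on 0 IR arrays and 6 sham control arrays. Sham control at 7d was the only group in which all 6 arrays detected miR-184. This group brought it among the 159 miRs, and nothing is drawn from its call. The bound set by IR detection limits against the sham control mean (5.97 ± 1.97, SD, n = 6) was 2.17-fold lower in IR and was not tested. The floored log2 difference of miR-184 was -3.34 (limma, adjusted p = 0.00713), a direction that turned with normexp background correction (0.44, not called). The call was also lost with brightness as a covariate (-1.58, adjusted p = 0.568 by limma), with the slide as a fixed block (adjusted p = 0.102 by limma) and when the floor was raised to the highest detection limit (-0.56, adjusted p = 0.438 by limma).

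Markers of other cell types were read beside these results. The summed signal of the 6 retina neuron miRs was 27670 to 31067 units for IR and 24340 to 30208 for sham control at 24 h, and none of the 6 was called at any time. Of the 3 striated muscle miRs, miR-133a was detected on no array and miR-1 on 11, and only miR-206 was tested. It was called higher in IR at all 5 time points (1.34 to 2.33 on the log2 scale, limma, adjusted p of 8e-05 to 0.00577), a direction that turned at 24 h and 7d without normalization between arrays (-0.24 and -1.25, beside -2.03 and -2.50 for the median of all miRs tested). The calls at 0 h and 2 h were lost in the exact permutation test (adjusted p = 0.0810 and 0.0688), at 0 h and 48 h without normalization (0.98 and 0.77), at 0 h and 7d when the floor was raised to the highest detection limit (0.90 and 0.45), at 0 h in a fit of only the 12 arrays compared (adjusted p = 0.0663 by limma), and at 7d with the slide as a fixed block (adjusted p = 0.0630 by limma). The summed signal of these 3 was 136 to 279 units in IR and 44.4 to 68.9 in sham control at 24 h. Of the 4 blood miRs none was tested, and miR-223 was the only one detected on more than 1 array. Their summed signal was 30.5 to 106 units in IR and 3.20 to 17.5 in sham control at 24 h, and 34.5 to 84.5 and 5.50 to 21.5 at 7d. In all these sums signals below 0 counted as 0, so noise on dim arrays can only add to them. At both times 3 of the 4 blood miRs were detected on no IR array, so no rise of blood miRs is drawn from these sums. Of the 3 pigment and ciliary epithelium miRs, miR-184 at 7d was the only call, and of the 3 vessel miRs none was called, with miR-145 detected on no array. The part of blood and muscle miRs in the results for the 3 miRs was not tested.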

How the data were processed

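Retinal miRs of 60 rats (6 per group, 10 groups) were measured on 1-color arrays. Per the file headers, the authors extracted the intensity of each spot with Feature Extraction 9.5.3.1, which subtracted background and a spatial trend and summed the spots of a miR into a total signal with its own error. Deposited intensities were not normalized between arrays. A second deposited table, of log2 values, was scaled by the authors to the 75th percentile and has the direction of the signal, and its column medians over 211 rat miRs lay between -0.93 and -0.48. It was an alternative only.

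Total signals were divided by the array's 75th percentile (57 miRs), floored at 6.20 units, taken to log2 and fitted with limma 3.58.1 in R 4.3.3. Detection was compared with Fisher's exact test, adjusted over 15 tests. Group neighbours were compared with exact permutation tests (two-sided) in scipy 1.17.1 under Python 3.11.15. A fold change at a group without detection was given as a bound from the lowest detected signal of each array, and not at all where the bound was under 1. Floored log2 differences printed for such groups rest on the floor. The numbers of arrays, 6 per group, limit the precision. The labels name biological replicates, so p-values measure the spread between rats, each on its own array. No slide held both groups of a comparison and the main fit leaves the slide out. Differences between slides are therefore partly mixed with those between groups (correlation within slides 0.23, with the slide as a random block).

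The members and the lists of other miRs were chosen with earlier results of these data known. Named beside the members were the 3 tested miRs most like each, the passenger strand, and the called miRs of the islet list, of which 4 per time point at most were given. Sequences came from RefSeq tables, in which all 3 members and the passenger strand were found. Scripts were tested on simulated data. Alternatives covered probe summary, background correction, scaling, floor, filter, blocks, brightness, test, the authors' table and each array left out. The mRNA arrays were not analysed here.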

Additional observations from a re-analysis of the deposited data

Results flagged for a closer look

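For rno-miR-7a the difference between IR and sham control changed over time by the interaction contrasts in limma, by -0.64 from 0 h to 24 h, by -0.60 from 0 h to 48 h and by -0.77 from 0 h to 7d on the log2 scale. With normexp background correction these turned (0.0080, 0.050 and 0.31), and with the slide as a fixed block none passed (limma, adjusted p = 0.340, 0.577 and 0.428). Part of each change lies in sham control, which was 0.39, 0.27 and 0.43 higher than at 0 h. In each group of 6, an array whose gap to its nearest neighbour exceeds the critical share of the group's range (Dixon's test, by which chance marks about 1 group in 20 where values are not floored) was noted. The values here are floored, so that share is no measure for the count below. Where all other arrays of a group lie at the floor, the highest is marked in any case. Of 28 groups with any spread, 7 held such an array, 6 of them for rno-miR-7b, where most other arrays lay at or near the floor of 2.63. The values on the log2 scale were 3.17 (IR 0 h, replicate 3), 2.69 (IR 2 h, replicate 4), 3.84 (sham control 2 h, replicate 3), 5.29 (IR 24 h, replicate 4), 3.26 (IR 48 h, replicate 4) and 4.84 (IR 7d, replicate 4). The value at IR 24 h came with detection, at the lowest signal called detected on that array (39.2 units), and the other 5 did not. For rno-miR-375 the array was IR 7d, replicate 5, at 3.42 without detection, the only one of its group above the floor.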

How the results depend on the processing

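Over 16 alternatives for IR minus sham control and 14 for the interactions of rno-miR-7a, 247 of 310 values kept their direction and their side of the threshold. With the direction kept, 17 lost their call and 7 were newly called. The sign changed in 39, of which 29 were not called in either setting and the rest were called in at least 1. All values are log2 differences. Those of rno-miR-375 at 24 h and 7d, and of rno-miR-7b at 2 h, 48 h and 7d, rest on the floor and are no fold changes. The median of all tested miRs, -0.13 at 24 h and -0.15 at 7d, was -0.42 and -0.35 with the 75th percentile over all miRs, -0.34 and -0.28 with quantile normalization, -2.03 and -2.50 without normalization, and 0.87 and 1.15 with normexp background correction. The normexp setting also added the same constant to every spot before scaling. The causes of these shifts were not tested. With normexp, rno-miR-375 was at 0.88 (0 h), 1.04 (24 h), 1.05 (48 h) and 1.47 (7d), rno-miR-7a at 0.0015 (2 h), 0.75 (24 h), 0.79 (48 h) and 1.05 (7d), and rno-miR-7b at 1.12, 0.054, 1.27, 1.27 and 1.79 in order of time. Called higher with normexp were rno-miR-375 at 24 h, 48 h and 7d, rno-miR-7a at 7d, and rno-miR-7b at every time but 2 h. The interactions of rno-miR-7a were then 0.0080 for 24 h, 0.050 for 48 h and 0.31 for 7d against 0 h, and 0.30 for 7d against 24 h. Relative to the median, rno-miR-375 was at 0.17, 0.21 and 0.32 with normexp at 24 h, 48 h and 7d, and rno-miR-7a at -0.12, -0.04 and -0.10. Without normalization, rno-miR-7a was at -1.01 (0 h), -2.74 (24 h), -1.74 (48 h) and -3.31 (7d), with interactions of 0.93 for 2 h and -0.73 for 48 h against 0 h, and rno-miR-7b at -0.054 (0 h), -0.59 (24 h) and -0.85 (7d). The mean over probes gave -0.21 at 0 h and -1.33 at 7d for rno-miR-7a, interactions of 0.10, -0.76 and -0.71 for 2 h, 24 h and 48 h, -0.014 for rno-miR-7b at 7d and -0.58 for rno-miR-375 at 0 h. The 75th percentile over all miRs gave -0.27 at 0 h for rno-miR-7a and interactions of 0.12, -0.63 and -0.43 for 2 h, 24 h and 48 h, quantile normalization gave -0.28 and 0.055, -0.59 and -0.54, and -0.018 for rno-miR-7b at 0 h. The authors' table gave -0.26 and interactions of 0.12 for 2 h and -0.42 for 48 h, with -0.37 at 24 h and -0.28 at 7d for rno-miR-7b. The slide as a fixed block gave interactions of -0.32, -0.24 and -0.33 for 24 h, 48 h and 7d, and 0.074 at 2 h and 0.059 at 48 h for rno-miR-7b, and as a random block -0.029 for rno-miR-7a at 0 h and -0.45 for its 48 h interaction. Brightness as a covariate gave -0.69 (0 h), -0.75 (24 h) and -0.65 (7d) for rno-miR-375, and -0.22, -0.30 and -0.52 for rno-miR-7b at these times. A floor of 1 unit gave -0.30 at 24 h and -0.48 at 7d for rno-miR-7b. The exact permutation test left -1.01 for rno-miR-375 at 0 h without a call.

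Leaving out 1 array at a time, rno-miR-375 ran from -1.18 to -0.91 at 0 h, called in 7 of 12 fits, and was called in all 12 fits at 24 h, 48 h and 7d. The range was -0.0027 to 0.085 for rno-miR-7a at 0 h (negative without IR replicate 3), and for rno-miR-7b -0.038 to 0.49 at 24 h and -0.086 to 0.36 at 7d (negative without IR replicate 4 each time). Replicate numbers did not pair the arrays (correlations of -0.45 to 0.60 over 30 pairs, 15 over 0.1, 7 IR arrays closest to their own number). With the replicate block, rno-miR-375 kept its differences (-1.01 at 0 h), no call for the 3 miRs changed, and their adjusted p at 0 h was 0.00022, 0.877 and 0.856 for rno-miR-375, rno-miR-7a and rno-miR-7b. No interaction passed for rno-miR-375 or rno-miR-7b under any alternative, except 1 of rno-miR-7b without normalization. The number of miRs called varied between 2 and 79 at 0 h (11 as reported), between 0 and 13 at 2 h (8), between 6 and 136 at 24 h (29), between 4 and 119 at 48 h (22) and between 4 and 149 at 7d (29). The 0 came from the exact permutation test, by which 22 miRs had an unadjusted p under 0.05. With the highest detection limit as floor the 3 miRs lay at the floor on every array, and none is among the 57 miRs detected on all arrays, so these alternatives gave no value. Within-slide values could not be had. Signal over error limits rno-miR-7b in all groups and rno-miR-375 in IR.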
